A study of Homo sapiens with 9 samples.

Results

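MCL1 and 9 further genes that decide whether a cell dies by mitochondrial apoptosis were followed in SKOV3 ovarian cancer cells that carried WT CDK9 or Tyr19Phe CDK9. The members were chosen by gene name from the deposited table: the anti-apoptotic genes MCL1, BCL2, BCL2L1 and BCL2L2, the BH3-only genes BCL2L11, BBC3 and PMAIP1, the effectors BAX and BAK1, and the caspase inhibitor XIAP. They make up 10 of the 58735 genes in the table, and 10 of 10 passed the filter on low counts, which left 16350 genes for testing.

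SKOV3 is an established human ovarian cancer line with amplified ERBB2. The cells expressed CDK9 either as the WT protein or with tyrosine 19 replaced by phenylalanine, which cannot be phosphorylated at that residue. RNA was sequenced from 9 libraries, 3 for each state: untreated cells with WT CDK9, cells with WT CDK9 kept in an ALK inhibitor for 24 h, and untreated cells with Tyr19Phe CDK9. The labels do not name the inhibitor or its dose, and every group shares the SKOV3 background and a CDK9 construct. The study describes stable lines made by putting CDK9 back into CDK9-depleted cells, but the sources do not say whether these libraries came from depleted cells or from how many lines per construct. A difference between constructs and a difference between lines cannot be told apart. The labels do not say whether the 3 libraries of a group came from separate cultures, so all p-values measure only the spread between these libraries, which may be technical.

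Anti-apoptotic BCL2 proteins bind and hold back the effectors BAX and BAK1, which otherwise form pores in the outer mitochondrial membrane and release cytochrome c. BH3-only proteins are the sensors: they occupy the groove of the anti-apoptotic proteins with a short helix, the BH3 domain, or activate the effectors directly. CDK9 is the kinase of P-TEFb, which releases paused RNA polymerase II into elongation, and short-lived transcripts such as MCL1 are known to be among those most readily lost when CDK9 activity is blocked.

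The BH3 helix is what lets these proteins bind one another, and its coding sequence is shown for the 9 members that hold it. In each, a script found the codons of a leucine or methionine, then arginine, lysine or alanine, any pair of residues, glycine or alanine, aspartate, and lastly aspartate, glutamate, glycine or lysine. The pattern was written with these motifs known, and its matches are a description. The windows are 45 bases of the coding strand, read from the GRCh38 genome with GENCODE v44 canonical transcripts, and the capitals mark the first codon of the pattern and the glycine-aspartate codons (alanine-aspartate in BBC3).
MCL1: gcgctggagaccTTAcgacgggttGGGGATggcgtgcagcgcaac
BCL2: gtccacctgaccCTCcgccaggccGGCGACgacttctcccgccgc
BCL2L1: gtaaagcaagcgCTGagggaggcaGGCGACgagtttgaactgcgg
BCL2L2: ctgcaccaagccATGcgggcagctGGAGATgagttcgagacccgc
BCL2L11: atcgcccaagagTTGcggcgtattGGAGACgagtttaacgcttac
BBC3: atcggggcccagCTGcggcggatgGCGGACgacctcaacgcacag
PMAIP1: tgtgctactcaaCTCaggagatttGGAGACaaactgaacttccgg
BAX: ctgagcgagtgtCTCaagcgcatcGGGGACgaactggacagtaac
BAK1: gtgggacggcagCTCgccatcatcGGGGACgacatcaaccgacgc

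The MCL1 window lies at chr1:150578862-150578906 on the minus strand and its pattern starts at codon 213 of 350. The PMAIP1 window lies at chr18:59902661-59902705 on the plus strand, at codon 29 of a protein of only 54 codons. Those of BCL2L11 (chr2:111150091-111150135, plus strand) and BBC3 (chr19:47226576-47226620, minus strand) were the most alike of all pairs, with 28 of 45 bases the same, followed by BCL2L1 (chr20:31721919-31721963, minus strand) and BCL2L2 (chr14:23307891-23307935, plus strand) with 27. MCL1 was most like BCL2 (chr18:63318346-63318390, minus strand), at 23 of 45 bases, and least like PMAIP1, at 13. The BAX and BAK1 windows lie at chr19:48955775-48955819 on the plus strand and chr6:33575384-33575428 on the minus strand. Of 19820 coding sequences, 369 (1.86%) held the pattern. XIAP did not, and neither did 12 of the 14 other BCL2 family genes listed here, among them the BH3-only genes BAD, BID and BMF; BIK and HRK did.

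Library totals were 18169050 to 20974903 counts in the 6 libraries with WT CDK9 and 26485891 to 29320184 in the Tyr19Phe CDK9 libraries. A count of 3 corresponded to 0.102 to 0.165 CPM, where CPM stands for counts per 1000000 of the TMM-scaled library. ALK inhibitor replicate 2 and Tyr19Phe CDK9 replicate 3 stood apart with 19944 and 20635 genes detected, against 21911 and 21915, and 22609 and 22744, in the others of their groups. CDK9 was at 47.6 to 49.7 CPM in WT CDK9 cells, 43.8 to 47.3 CPM with the ALK inhibitor and 52.4 to 59.5 CPM in Tyr19Phe CDK9 cells. These counts would add endogenous CDK9 and the construct and do not read residue 19, so they do not check the labels. ALK, the labelled target of the inhibitor, was at 0 to 0.267 CPM in the 9 libraries and failed the filter. Of 7 epithelial and SKOV3 markers, KRT7, KRT8 and ERBB2 were the most abundant, at means of 1472, 1436 and 1965 CPM, and CDH1 was nearly absent at 0.398 CPM. With the inhibitor 3 of the 7 were called and in Tyr19Phe CDK9 cells 5, where 4.55 and 18.0% of all tested genes were called. The calls went in both directions. The log2 fold changes, in that order, were 0.54 and -0.29 for ERBB2, 0.21 and -1.24 for KRT19 and -0.02 (not called) and -0.82 for EPCAM. KRT7 fell with the inhibitor (-0.35), and KRT8 (0.38) and KRT18 (0.39) rose in Tyr19Phe CDK9 cells. The part of these differences in the results was not tested. In all, 8 of 8 markers of leukocytes, endothelium and fibroblasts failed the filter, at 0 to 0.641 CPM.

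MCL1 was the most abundant member and BBC3 and BCL2 the scarcest. Per kilobase of the deposited gene length, WT CDK9 cells held 76.4 ± 3.95 CPM per kilobase of MCL1 (SD, n = 3) and 48.1 ± 2.97 of BCL2L1, which placed them at the 97.22 and 95.01 percentiles of the tested genes. BAK1 (23.8 ± 1.96), PMAIP1 (21.2 ± 0.257) and BAX (17.9 ± 0.657) followed on the same scale. BCL2L2 (9.62 ± 0.797) and XIAP (9.43 ± 0.215) overlapped each other. BCL2L11 was at 1.06 ± 0.0788 CPM per kilobase. BCL2 (0.600 ± 0.152) and BBC3 (0.533 ± 0.156) again overlapped, and all other neighbours in this order were apart in WT CDK9 cells. The highest library exceeded the lowest by 1.17 times for MCL1 and BAX and by 3.597 times for BBC3, which had 22 to 77 counts per library.

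**Figure D1:**
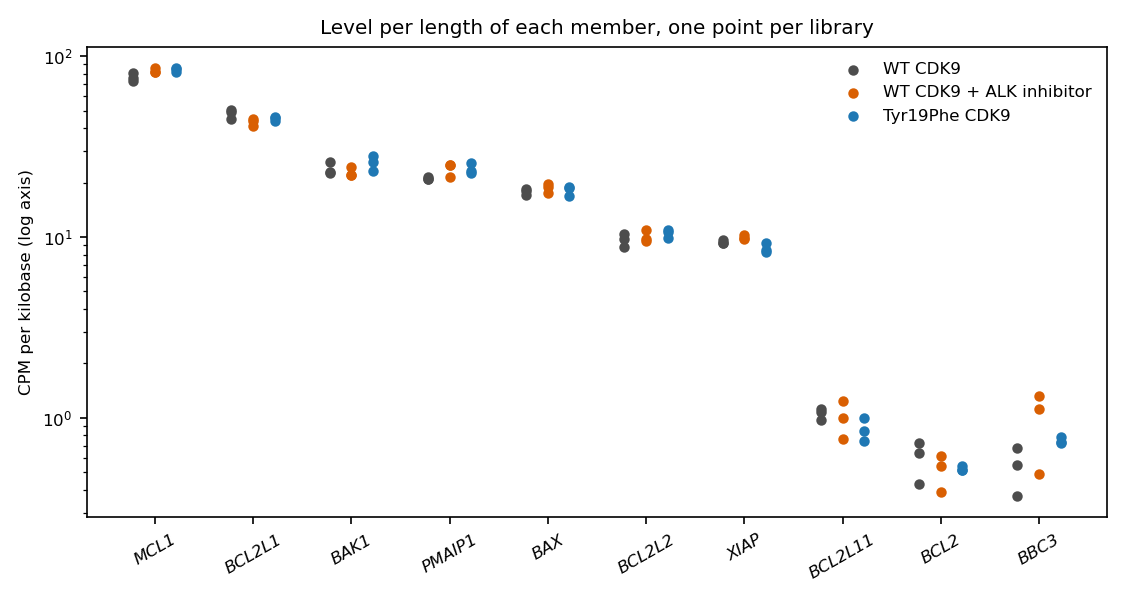
Level of each member in CPM per kilobase of gene length (log axis), 1 point per library, in WT CDK9, ALK inhibitor-treated WT CDK9 and Tyr19Phe CDK9 cells. MCL1, at a WT CDK9 mean of 76.4, stands above every other member in every library, and BCL2L11, BCL2 and BBC3 lie near 1 or below.

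The first comparison asks what 24 h of ALK inhibition did to these genes in WT CDK9 cells. None of the 10 members passed an adjusted p of 0.05 in edgeR's quasi-likelihood test, where 4.55% of all tested genes did. At an unadjusted p under 0.05 there were 4 members (MCL1, BCL2L1, BBC3 and PMAIP1), where 2473 of the 16350 tested genes passed. DESeq2 also called 0 members, with 4 at the unadjusted threshold. Of the 10, 6 lay above 0 and 4 below, with a median log2 fold change of 0.07 against -0.001 over all genes. The groups did not overlap for 3 members (MCL1, BCL2L1 and XIAP), a pattern found for 19.6% of tested genes. In bulk RNA, a smaller number of cells of a kind and less RNA per cell cannot be told apart.

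The second comparison sets untreated Tyr19Phe CDK9 cells against untreated WT CDK9 cells, where construct and line cannot be told apart. MCL1 was higher in Tyr19Phe CDK9 cells and was the 1 member called of 10, where 18.0% of tested genes were called. At an unadjusted p under 0.05 PMAIP1 joined it, where 4739 of the 16350 tested genes passed, and DESeq2 also called 1 member. For 4 members (MCL1, BBC3 and PMAIP1 higher, XIAP lower) the groups did not overlap, against 32.6% of all tested genes. The median of the 10 was 0.07 on the log2 scale against 0.003 over all genes.

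The third comparison sets Tyr19Phe CDK9 cells directly against ALK inhibitor-treated WT CDK9 cells and is the test of whether these states differ. Only XIAP was called of 10 members, and it was lower in Tyr19Phe CDK9 cells, where 20.7% of tested genes were called. The groups did not overlap for this gene alone, against 34.4% of tested genes. At an unadjusted p under 0.05 BAK1 joined it, where 5145 of the 16350 tested genes passed, and DESeq2 called 1 member. All 3 comparisons share libraries, so their values are given side by side and are not independent.

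**Figure D2:**
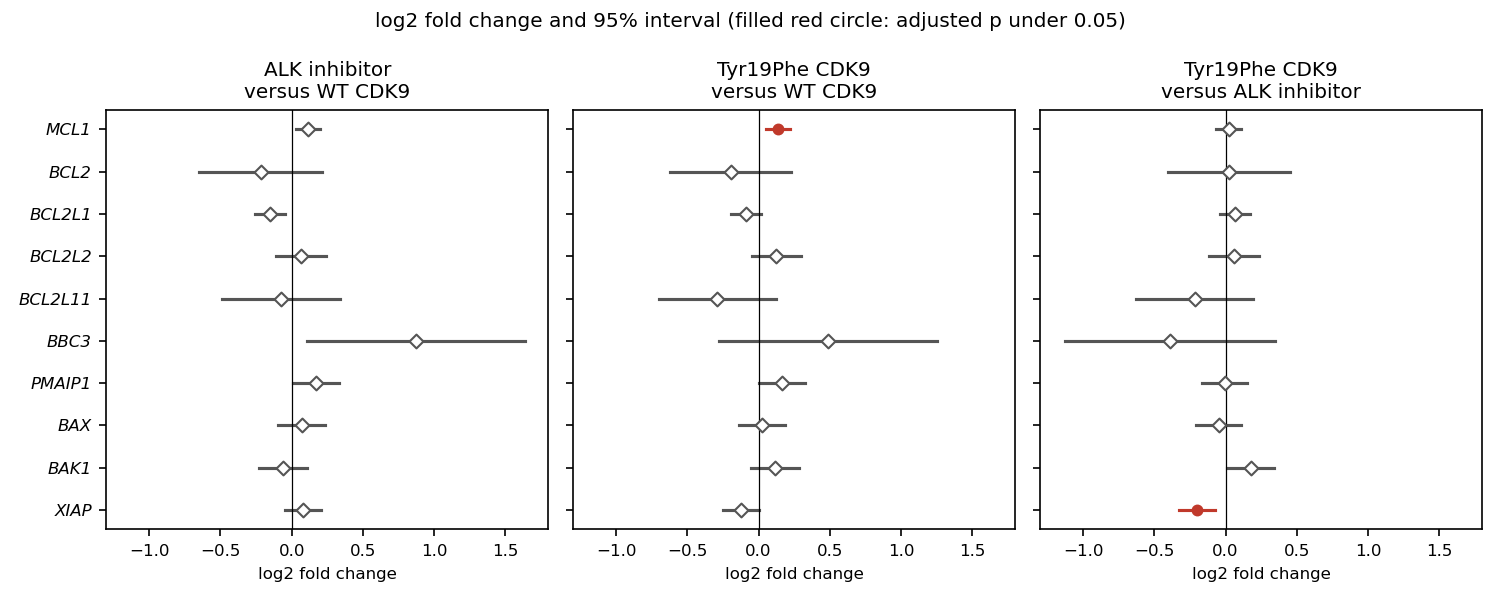
log2 fold change with 95% interval of the 10 members in each of the 3 comparisons; filled red circles passed an adjusted p of 0.05 in edgeR, and open diamonds did not. MCL1 (0.14) in the comparison of Tyr19Phe CDK9 with WT CDK9 and XIAP (-0.20) in that of Tyr19Phe CDK9 with the ALK inhibitor are filled; the BBC3 intervals are the widest.

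Among the anti-apoptotic members, MCL1, a short-lived protein that holds BAK1 and PMAIP1, was at 353, 329 and 320 CPM in the WT CDK9 libraries. It was at 374, 356 and 355 CPM with the ALK inhibitor and at 357, 370 and 374 CPM in Tyr19Phe CDK9 cells. Every library of both other groups was above every WT CDK9 library, although WT CDK9 replicate 1 came within a few CPM of them. In Tyr19Phe CDK9 cells the log2 fold change was 0.14 ± 0.04 (SE, adjusted p = 0.0208), which is 9.85% more with an interval of 3.53 to 16.5%. With the ALK inhibitor it was 0.11 ± 0.04 (adjusted p = 0.143), or 8.25% more (1.98 to 14.9%). Between these states the difference was 0.02, with an interval of -0.06 to 0.11 (adjusted p = 0.786). All these changes are relative to the other genes of the same libraries, and a change in RNA per cell shared by most genes would not show. The Tyr19Phe CDK9 call was lost without WT CDK9 replicate 2 (adjusted p = 0.0553) or 3 (0.128), and without Tyr19Phe CDK9 replicate 2 (0.0543) or 3 (0.0664). With both libraries of fewer detected genes left out it was 0.0748. The leave-one-out values ran from 0.11 to 0.18. Within 5 Mb of MCL1 the 172 tested genes had a median of 0.04 in the same comparison. Gene-level counts add the long and short splice forms of MCL1 and of BCL2L1, whose proteins act in opposite directions.

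BCL2L1, which encodes BCL-XL, was at 163, 167 and 148 CPM in WT CDK9 cells. It was at 137, 145 and 148 CPM with the ALK inhibitor and at 145, 153 and 151 CPM in Tyr19Phe CDK9 cells. The inhibitor-treated libraries all lay below the WT CDK9 ones, the highest of them just under WT CDK9 replicate 3, whereas Tyr19Phe CDK9 overlapped WT CDK9. The log2 fold change was -0.15 ± 0.05 with the inhibitor (adjusted p = 0.106) and -0.09 ± 0.05 in Tyr19Phe CDK9 cells (adjusted p = 0.280). Without WT CDK9 replicate 3 the inhibitor value was -0.20 and passed the threshold (adjusted p = 0.0363).

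BCL2L2, which encodes BCL-W, ranged from 36.8 to 45.8 CPM and its groups overlapped in all comparisons. Its log2 fold changes were 0.07 (-0.11 to 0.24) with the inhibitor and 0.12 (-0.05 to 0.30) in Tyr19Phe CDK9 cells. BCL2, the founding member of the family, was at 5.08 to 8.55 CPM in WT CDK9 cells, 4.60 to 7.25 CPM with the inhibitor and 6.04 to 6.40 CPM in Tyr19Phe CDK9 cells. Its groups overlapped throughout. The intervals of its log2 fold changes, -0.65 to 0.22 and -0.62 to 0.23, reach as far down as -36.3% and -34.9% of its level.

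The make-up of the anti-apoptotic pool was described from the summed CPM per kilobase of these 4 genes, which was 127 to 140 in WT CDK9, 136 to 138 with the inhibitor and 137 to 142 in Tyr19Phe CDK9 libraries. MCL1 supplied 57.6, 55.0 and 57.6% of it in WT CDK9 cells. With the inhibitor the share was 61.9, 60.0 and 59.8%, and in Tyr19Phe CDK9 cells it was 59.8, 59.5 and 60.4%. Every library of both groups lay above the WT CDK9 libraries. The BCL2L1 share was 35.1 to 36.9%, 29.9 to 32.8% and 32.1 to 32.5% in the same order, with no overlap with WT CDK9. There were 1.49 to 1.64 units of MCL1 for each unit of BCL2L1 in WT CDK9 cells, 1.82 to 2.07 with the inhibitor and 1.83 to 1.87 in Tyr19Phe CDK9 cells. MCL1 and BCL2L1 make up most of the sum, so a higher MCL1 share goes with a lower BCL2L1 share. The shares and the ratio are therefore not separate results, and BCL2L1 itself overlapped WT CDK9 in Tyr19Phe CDK9 cells. The shares were put together after the members' values were known and carry no test.

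**Figure D3:**
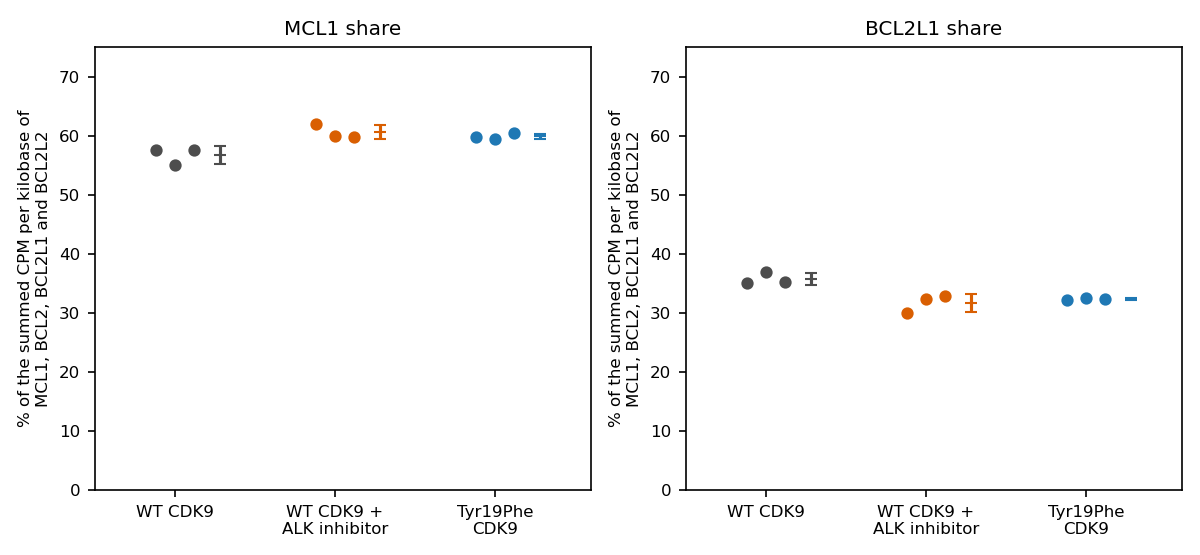
Share of MCL1 (left) and BCL2L1 (right) in the summed CPM per kilobase of MCL1, BCL2, BCL2L1 and BCL2L2, in percent, for each library (points) with mean ± SD, n = 3. The MCL1 share is 55.0 to 57.6% in WT CDK9 cells and 59.5 to 61.9% in the other groups, and the BCL2L1 share is 35.1 to 36.9% and 29.9 to 32.8%.

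Of the BH3-only members, BBC3, which encodes PUMA, had the widest spread. It was at 1.74, 2.16 and 1.18 CPM in WT CDK9 cells, 3.56, 4.23 and 1.55 CPM with the inhibitor and 2.34, 2.49 and 2.30 CPM in Tyr19Phe CDK9 cells. With the inhibitor replicate 3 lay inside the WT CDK9 range and the other two above it, and the Tyr19Phe CDK9 libraries all lay above WT CDK9. The log2 fold changes were 0.87 ± 0.38 (adjusted p = 0.244) and 0.49 ± 0.37 (adjusted p = 0.432), with intervals of 0.11 to 1.64 and -0.28 to 1.249. At 22 to 77 counts the spread between libraries was 31.0% (CV), against 15.1% from counting alone.

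PMAIP1 encodes NOXA, the BH3-only protein that binds MCL1 and promotes its destruction. It was at 48.0, 47.0 and 47.0 CPM in WT CDK9 cells, at 55.9, 47.8 and 56.2 CPM with the inhibitor and at 50.7, 51.7 and 57.0 CPM in Tyr19Phe CDK9 cells. The Tyr19Phe CDK9 libraries were all above WT CDK9, and inhibitor replicate 2, a library with fewer detected genes, sat in the WT CDK9 range. The log2 fold changes were 0.17 ± 0.08 (adjusted p = 0.297) and 0.17 ± 0.08 (adjusted p = 0.155).

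BCL2L11, which encodes BIM, was at 6.47 to 7.49 CPM in WT CDK9 cells, 5.11 to 8.31 CPM with the inhibitor and 4.95 to 6.67 CPM in Tyr19Phe CDK9 cells. The groups overlapped in all comparisons. Its log2 fold change was -0.29 in Tyr19Phe CDK9 cells, with an interval of -0.70 to 0.12 (adjusted p = 0.370). The whole gene lies inside the span of MIR4435-2HG on the other strand, which had 190 to 379 counts. Overlap of their exons was not examined and strand use is not given in the sources, so whether they share reads is not known.

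Neither effector was called in any comparison. BAX was at 44.3 to 47.6 CPM in WT CDK9 cells, 45.5 to 51.1 CPM with the inhibitor and 43.7 to 48.7 CPM in Tyr19Phe CDK9 cells. Its groups overlapped, and its log2 fold changes were 0.07 (-0.09 to 0.23) and 0.02 (-0.14 to 0.18). BAK1, the effector most tightly held by MCL1 and BCL-XL, was at 49.7 to 57.5, 48.5 to 53.9 and 51.0 to 62.1 CPM in the same order. Its groups also overlapped. Tyr19Phe CDK9 differed from the inhibitor by 0.18 ± 0.08 on the log2 scale (adjusted p = 0.134), and without Tyr19Phe CDK9 replicate 1 that value was 0.25 and passed the threshold (adjusted p = 0.0461).

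XIAP, which binds and blocks caspases downstream of the mitochondrion, lay on opposite sides of WT CDK9 in the treated and the mutant cells. It was at 83.8, 84.1 and 87.3 CPM in WT CDK9 cells, 93.1, 88.8 and 87.9 CPM with the inhibitor and 76.8, 74.5 and 83.6 CPM in Tyr19Phe CDK9 cells. All inhibitor libraries lay above and all Tyr19Phe CDK9 libraries below WT CDK9, replicate 3 of Tyr19Phe CDK9 by only a fraction of 1 CPM. Neither differed from WT CDK9 past the threshold, at 0.08 ± 0.06 (adjusted p = 0.631) and -0.12 ± 0.06 (adjusted p = 0.198). Against each other they differed by -0.20 ± 0.06 (adjusted p = 0.0186), or -13.0% with an interval of -20.25 to -5.02%. This call was lost without inhibitor replicate 1 (adjusted p = 0.0917) and without Tyr19Phe CDK9 replicate 1 (0.0616) or 2 (0.106).

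**Figure D4:**
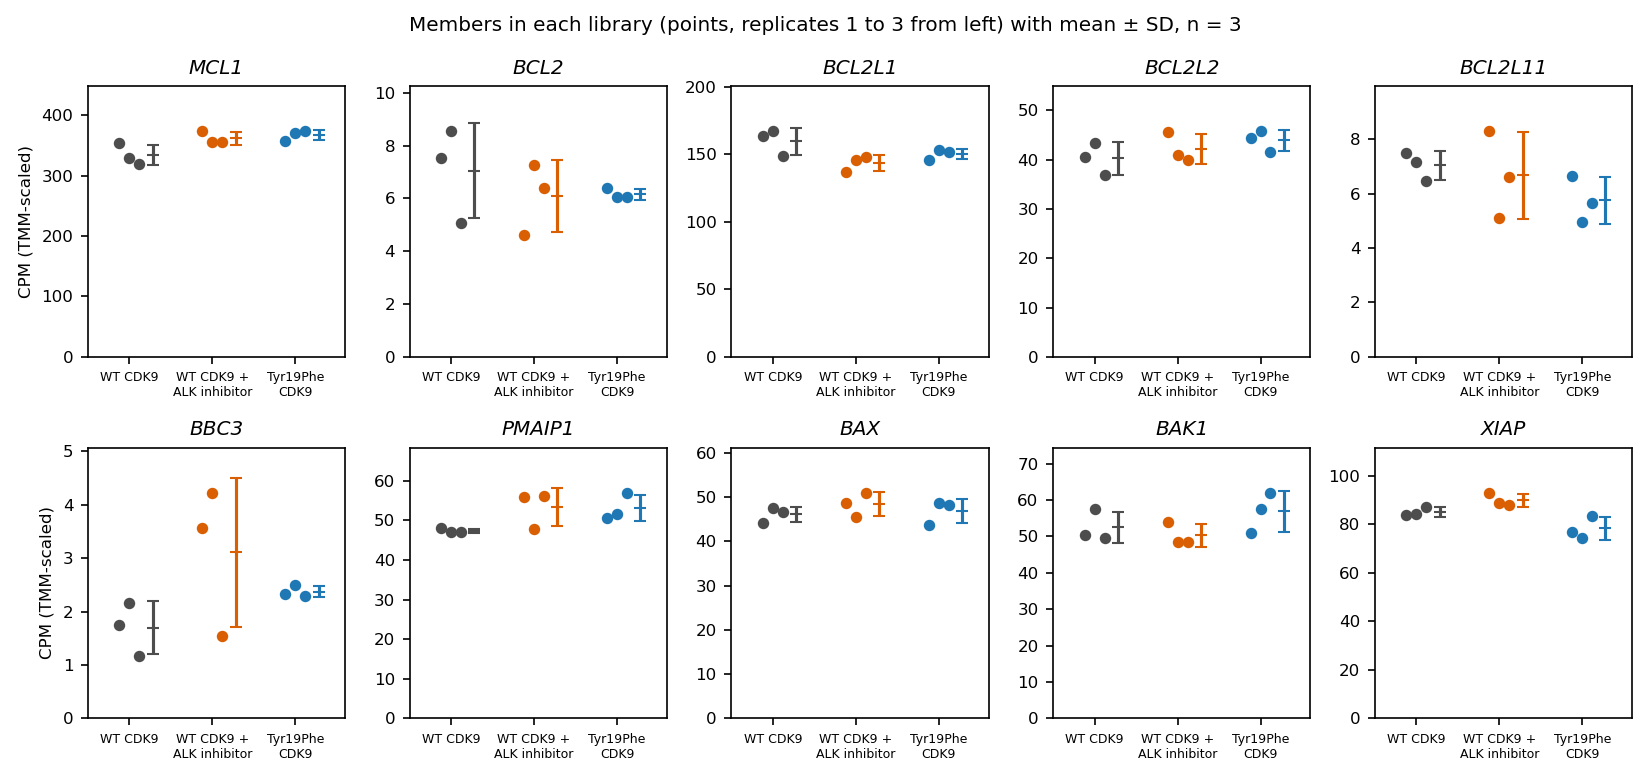
TMM-scaled CPM of each member in every library (points, replicates 1 to 3 from the left) with mean ± SD, n = 3; each axis starts at 0. MCL1 is at 320 to 353 CPM in WT CDK9 cells and at 355 to 374 CPM in both other groups, and XIAP is at 87.9 to 93.1 CPM with the inhibitor and 74.5 to 83.6 CPM in Tyr19Phe CDK9 cells.

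Of 14 other BCL2 family genes 9 were tested, and BCL2A1, BCL2L10, HRK, BCL2L14 and BCL2L15 failed the filter. With the inhibitor 1 rose (BMF) and 2 fell (BOK, BNIP3), where 4.55% of all tested genes were called. In Tyr19Phe CDK9 cells 3 rose (BCL2L13, BAD, BOK) and 1 fell (BNIP3), where 18.0% of all tested genes were called, and the median of the 9 was 0.18. BID, BIK, BCL2L12 and BNIP3L were not called in any comparison.

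BMF, a BH3-only gene whose product is released from the cytoskeleton, was at 6.003, 7.34 and 10.9 CPM in WT CDK9 cells and at 14.9, 12.6 and 19.3 CPM with the inhibitor. In Tyr19Phe CDK9 cells it was at 14.02, 9.79 and 5.88 CPM. The inhibitor group lay wholly above WT CDK9, and Tyr19Phe CDK9 spanned both. The log2 fold change with the inhibitor was 0.95 ± 0.22 (adjusted p = 0.00711), or 1.93-fold. That call was lost without WT CDK9 replicate 1 (adjusted p = 0.0970), without inhibitor replicate 3 (0.0938) and in DESeq2 (0.128). Tyr19Phe CDK9 differed from the inhibitor by -0.65 ± 0.21 (adjusted p = 0.0278), which was not called in DESeq2 (0.232) or without inhibitor replicate 1 (0.0520) or 3 (0.204) or Tyr19Phe CDK9 replicate 2 (0.0763) or 3 (0.225).

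BNIP3, a mitochondrial BH3-related gene known for its part in mitophagy, was at 69.5 to 78.7 CPM in WT CDK9 cells, 57.9 to 62.9 CPM with the inhibitor and 52.2 to 57.1 CPM in Tyr19Phe CDK9 cells. Both groups lay wholly below WT CDK9. The log2 fold changes were -0.30 ± 0.07 (adjusted p = 0.0108) and -0.40 ± 0.07 (adjusted p = 8.3e-05), and they did not differ past the threshold (-0.11, interval -0.25 to 0.04). The inhibitor call was lost without WT CDK9 replicate 2 (adjusted p = 0.111) and without inhibitor replicate 1 (0.0671) or 2 (0.0619), and the Tyr19Phe CDK9 call in 0 of 9 leave-one-out fits.

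BOK, an effector-like gene, fell with the inhibitor (-0.31 ± 0.08, adjusted p = 0.0211) and rose in Tyr19Phe CDK9 cells (0.23 ± 0.08, adjusted p = 0.0478). Its libraries were at 67.9 to 93.6, 62.0 to 69.9 and 89.2 to 103 CPM in the order WT CDK9, inhibitor, Tyr19Phe CDK9. The inhibitor and Tyr19Phe CDK9 libraries did not overlap and differed by 0.54 ± 0.08 (adjusted p = 6.90e-06). The inhibitor call against WT CDK9 was lost without WT CDK9 replicate 1 or 2 and without inhibitor replicate 1 or 3 (adjusted p up to 0.271, without WT CDK9 replicate 2). The Tyr19Phe CDK9 call against WT CDK9 was lost without WT CDK9 replicate 1 or 3, inhibitor replicate 3, or Tyr19Phe CDK9 replicate 1 or 2 (adjusted p up to 0.379, without WT CDK9 replicate 3), and in DESeq2 (0.0652).

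BCL2L13, a mitophagy receptor, was at 43.0 to 48.4 CPM in WT CDK9 cells and 49.8 to 64.1 CPM in Tyr19Phe CDK9 cells, with no overlap (0.37 ± 0.09, adjusted p = 0.00170). With the inhibitor it was at 51.7 to 56.9 CPM, also wholly above WT CDK9 but not called (0.27 ± 0.09, adjusted p = 0.0672). The 85 tested genes within 5 Mb of it on chromosome 22 had a median of 0.28 in Tyr19Phe CDK9 cells and -0.05 with the inhibitor, and their part in the result was not tested. BAD, the BH3-only gene controlled by survival kinases, was at 22.3 to 24.6 CPM and 27.6 to 29.1 CPM, again without overlap (0.28 ± 0.10, adjusted p = 0.0451). GPR137 overlaps 98.4% of the span of BAD on the other strand with 580 to 987 counts, and whether they share reads is likewise not known. The BAD call held in only 1 of 9 leave-one-out fits, the one without inhibitor replicate 2 (adjusted p up to 0.132 in the others, without WT CDK9 replicate 2). Against the inhibitor, at 21.5 to 22.6 CPM, BAD was higher in Tyr19Phe CDK9 cells by 0.37 ± 0.10 (adjusted p = 0.00688), and this call held in 9 of 9 leave-one-out fits and 7 of 7 other alternatives.

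MCL1 protein is kept short-lived by ubiquitin ligases and spared by deubiquitinases. Of the 12 listed genes that act on its turnover, 12 were tested. None was called with the inhibitor in edgeR or DESeq2, with 1 at an unadjusted p under 0.05 in each. Of the 16350 tested genes, 2473 had such a p in edgeR. In Tyr19Phe CDK9 cells 6 fell and 0 rose, with a median of -0.17, where 18.0% of all tested genes were called (1695 lower and 1245 higher). The list was chosen with earlier results of these data known, so its count beside that share is only a description. The 6 hold both kinds of enzyme: the ligase parts HUWE1 (MULE), FBXW7 and CUL5, the deubiquitinases USP9X and USP13, and GSK3B, which phosphorylates MCL1.

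HUWE1 was at 401, 391 and 430 CPM in WT CDK9 cells and at 321, 301 and 331 CPM in Tyr19Phe CDK9 cells, with no overlap (-0.36 ± 0.04, adjusted p = 1.73e-07). USP13 was at 60.6 to 64.1 and 48.2 to 50.5 CPM (-0.35 ± 0.07, adjusted p = 6.0e-04). USP9X was at 308 to 337 and 273 to 301 CPM (-0.19 ± 0.04, adjusted p = 0.00205). All 3 stayed called in 9 of 9 leave-one-out fits. FBXW7 fell by 0.42 on the log2 scale (adjusted p = 0.00882), and the 34 tested genes within 5 Mb of it on chromosome 4 had a median of -0.33. Its call was lost without WT CDK9 replicate 3 (adjusted p = 0.109) or Tyr19Phe CDK9 replicate 3 (0.0539). That of GSK3B (-0.18 ± 0.06, adjusted p = 0.0201) was lost without WT CDK9 replicate 2 (0.207) or Tyr19Phe CDK9 replicate 3 (0.104).

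Downstream of the mitochondrion, 7 of 7 listed apoptosome and caspase genes were tested and none was called against WT CDK9 with the inhibitor or in Tyr19Phe CDK9 cells. At an unadjusted p under 0.05 there were 2 and 1 in edgeR and 2 and 0 in DESeq2, which called none at the adjusted threshold. Of the 16350 tested genes, 2473 and 4739 had such a p in edgeR. CYCS, which encodes cytochrome c, was at 107 to 115 CPM in WT CDK9 cells, 87.8 to 112 CPM with the inhibitor and 95.3 to 107 CPM in Tyr19Phe CDK9 cells. CASP2, an initiator caspase, was at 59.7 to 70.6 CPM over all libraries. Between Tyr19Phe CDK9 and the inhibitor the executioner CASP6 (-0.39 ± 0.14, adjusted p = 0.0441) was lower in Tyr19Phe CDK9 cells. It lies on chromosome 4, where the 607 tested genes had a median of -0.23 in that comparison. The 35 within 5 Mb of CASP6 had a median of -0.31, and their part in the result was not tested. CASP6 was not called in DESeq2 (0.0652) or in 6 of 9 leave-one-out fits, those without WT CDK9 replicate 1, inhibitor replicate 1 or 2, or any Tyr19Phe CDK9 library (adjusted p up to 0.248, without inhibitor replicate 1).

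Among 8 IAP genes and their antagonists other than XIAP, all tested, 1 was called in each comparison, where 4.55, 18.0 and 20.7% of all tested genes were called with the inhibitor, in Tyr19Phe CDK9 cells and between them. BIRC2, which encodes the ubiquitin ligase cIAP1, was at 231 to 255 CPM in WT CDK9 cells, 209 to 223 CPM with the inhibitor and 249 to 254 CPM in Tyr19Phe CDK9 cells. The inhibitor libraries were below all others (-0.16 ± 0.05 against WT CDK9, adjusted p = 0.0340). BIRC6, a giant IAP, was lower in Tyr19Phe CDK9 cells (-0.18 ± 0.06, adjusted p = 0.0263). The BIRC2 call against WT CDK9 was lost without WT CDK9 replicate 1 or 3 or any inhibitor library (adjusted p up to 0.258, without WT CDK9 replicate 3). That of BIRC6 was lost without WT CDK9 replicate 2 or 3 or Tyr19Phe CDK9 replicate 1 or 3 (up to 0.129, without Tyr19Phe CDK9 replicate 1).

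**Figure D5:**
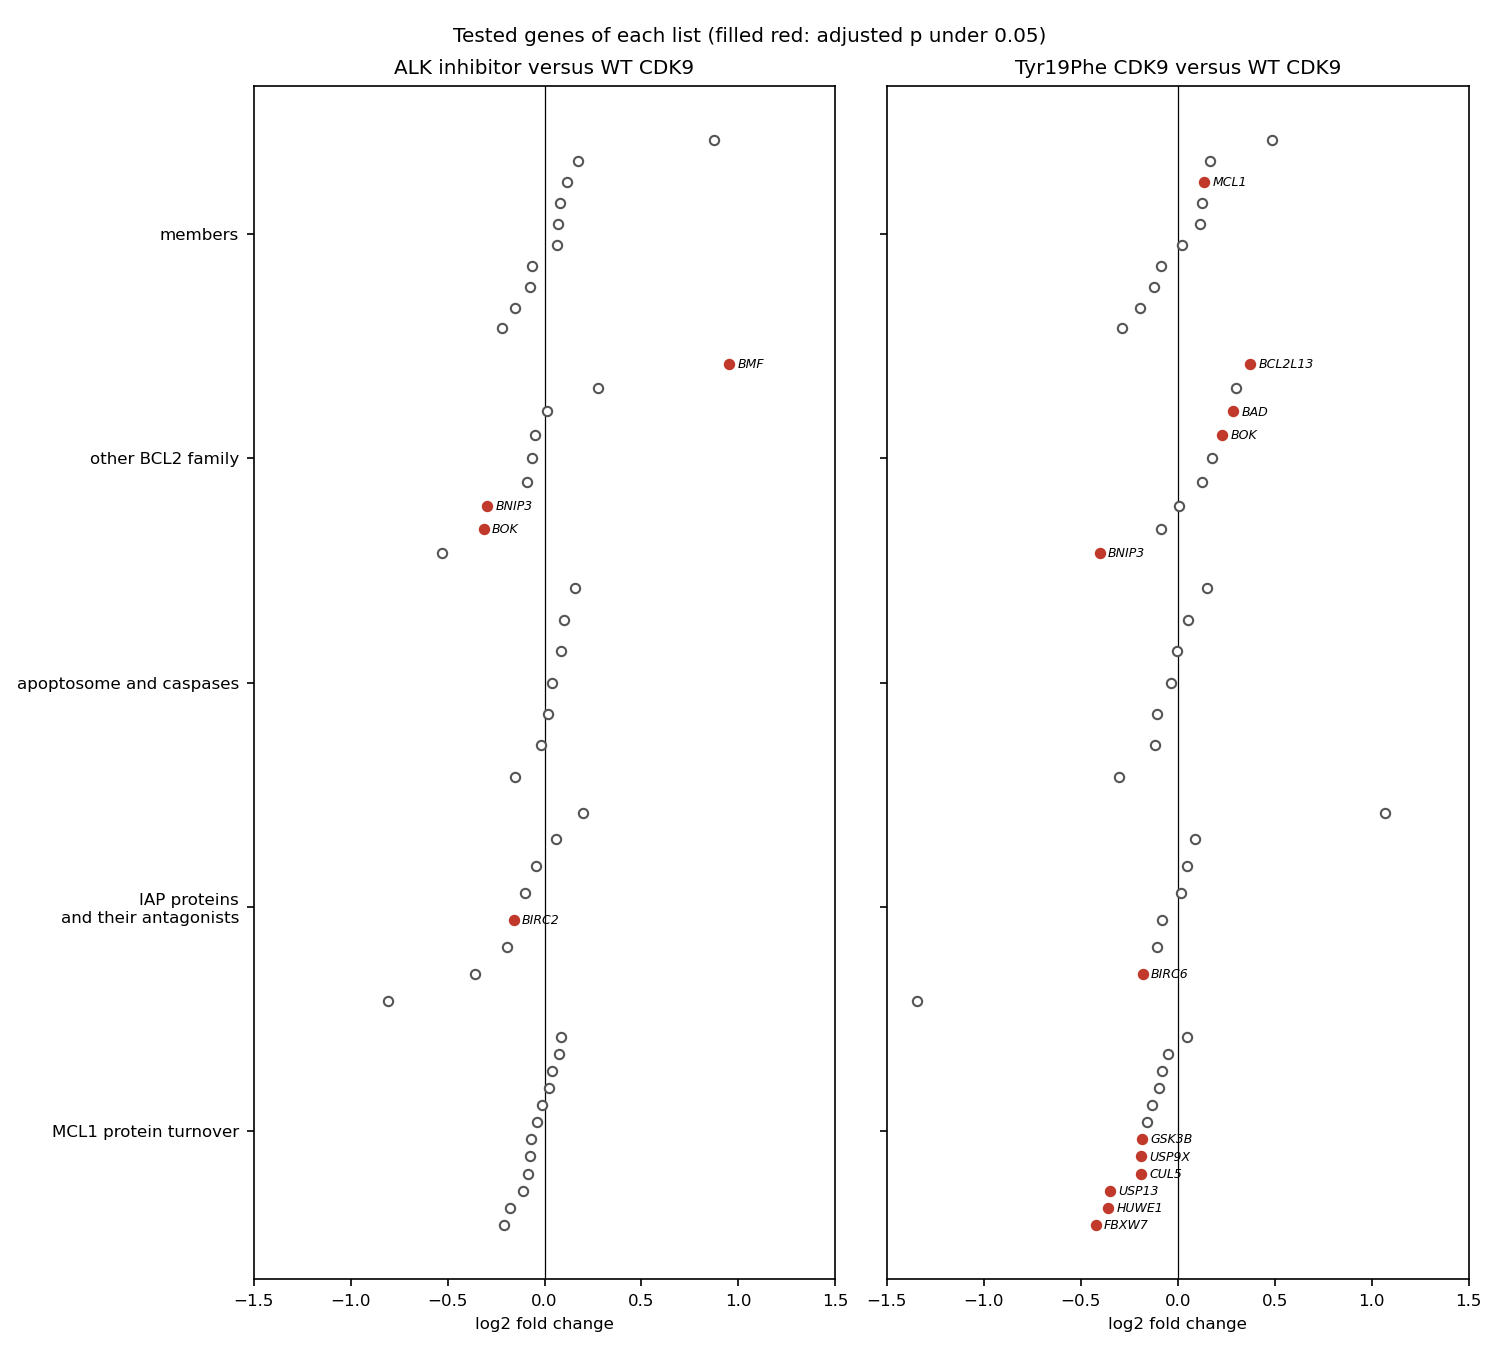
log2 fold change of every tested gene of 5 gene lists (members, other BCL2 family, apoptosome and caspases, IAP proteins and their antagonists, MCL1 protein turnover) with the ALK inhibitor (left) and in Tyr19Phe CDK9 cells (right), each against WT CDK9; filled red points passed an adjusted p of 0.05. BMF (0.95) stands highest on the left, and 6 turnover genes are filled below 0 on the right. The lists were chosen with earlier results of these data known.

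The genes whose pattern was most like that of MCL1 over the 9 libraries were sought among 11140 tested genes whose mean reached 5 CPM. They were ARTN (Pearson r of log2 CPM 0.954), HEATR5B (0.942), NTHL1 (0.941), CERKL (0.936) and ANAPC16 (0.930). These values describe 9 libraries that fall into 3 groups, and the 5 genes were taken as the highest of many.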

How the data were processed

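Per the labels, total RNA was extracted from SKOV3 cells and sequenced; the submitters' processing notes name CASAVA, HISAT2 2.0.5, featureCounts 1.5.0-p3 and GRCh38. Annotation release and strand setting are not given in the sources used here. The authors deposited raw read counts per gene (not normalized) for all 9 libraries, with gene length, in 1 table. Counts were TMM-scaled, filtered with filterByExpr (at least 10 counts, 15 in total) and tested with edgeR 4.0.16 (quasi-likelihood, 1 group term, 9 libraries, Benjamini-Hochberg over 16350 genes, threshold 0.05, R 4.3.3). DESeq2 1.42.0 was an alternative. The scripts were tested on simulated data. There edgeR recovered 40% of the 50 genes changed 1.25-fold in each comparison with WT CDK9, so small changes can be missed. Members and lists were chosen with earlier results of these data known. Named beyond the members and the 14 other family genes were, per list and comparison, up to 4 called genes of smallest adjusted p, or the 2 most abundant of a list with none; CUL5 and GSK3B in the turnover list were named for completeness. Same-numbered libraries were not paired (correlation of deviations -0.0116 to 0.0260). DIABLO has more than 1 row, of which the one with more counts was used. Intervals are 95%. Some listed genes are not reported here.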

Additional observations from a re-analysis of the deposited data

How the results depend on the processing

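The spread between libraries exceeded counting error for every member. It was widest for BBC3 (CV 31.0 against 15.1%), BCL2 (19.5 against 8.62%) and BCL2L11 (16.9 against 8.54%), and for MCL1 it was 3.67 against 1.15%. The number of members called with the ALK inhibitor was 1 on library size alone (MCL1, adjusted p = 0.0493) and 0 to 1 in leave-one-out fits. In Tyr19Phe CDK9 against WT CDK9 it was 0 with both libraries of fewer detected genes left out and 0 to 1 in leave-one-out fits. Against the inhibitor it was 0 to 1. The genes called with the inhibitor numbered 491 to 738 in leave-one-out fits (491 without WT CDK9 replicate 1), and on library size alone 344 of 750 were lower, against 447 of 744. With the replicate block, which rests on shared numbers only, 818, 3076 and 3465 genes were called, and 0, 1 and 1 members. Directions turned only in uncalled values: BCL2L11 with the inhibitor (0.0867 with both libraries left out, -0.26 to 0.0868 in leave-one-out fits), BAK1 with the inhibitor (-0.11 to 0.0106), BAX in Tyr19Phe CDK9 (-0.0042 to 0.0727), and, between Tyr19Phe CDK9 and the inhibitor, BCL2 (-0.15 to 0.17) and PMAIP1 (-0.0769 to 0.0350). With both libraries of fewer detected genes left out, these reported calls were lost as well (edgeR adjusted p). With the inhibitor they were BNIP3 (0.0619), BIRC2 (0.206) and VDAC3 (0.05665). In Tyr19Phe CDK9 against WT CDK9 they were BAD (0.0990), BIRC6 (0.0736), FBXW7 (0.0503), GSK3B (0.103) and TNFRSF10B (0.183). Against the inhibitor they were BMF (0.109), CASP6 (0.113), FADD (0.0944), RIPK1 (0.399) and VDAC2 (0.0678). Over all named genes and alternatives 1180 values kept direction and call, 118 lost the call, 3 gained it and 11 turned. The cause was not tested.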

Other observations

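Death receptors start apoptosis from the cell surface and meet the BCL2 family at BID. Of 10 listed genes 10 were tested; 1 rose with the ALK inhibitor and 2 in Tyr19Phe CDK9 cells, against 4.55% and 18.0% of all genes called in either direction. TNFRSF1A, the main TNF receptor, was at 66.6 to 71.4 CPM in WT CDK9 cells and 84.6 to 87.5 CPM with the inhibitor (0.31 ± 0.06, adjusted p = 0.00206 in edgeR), and stayed called in 9 of 9 leave-one-out fits. In Tyr19Phe CDK9 cells it was at 67.2 to 73.5 CPM, below every inhibitor library (-0.28 ± 0.06, adjusted p = 0.00146). TRADD, its adaptor (0.46 ± 0.15, adjusted p = 0.0290), and TNFRSF10B, a TRAIL receptor (0.17 ± 0.06, adjusted p = 0.0432), rose in Tyr19Phe CDK9 cells against WT CDK9 in edgeR. The TRADD call was lost without WT CDK9 replicate 2 (0.223) or Tyr19Phe CDK9 replicate 1 (0.0910) or 2 (0.138), and that of TNFRSF10B without WT CDK9 replicate 2 or 3, inhibitor replicate 3, or Tyr19Phe CDK9 replicate 1 or 3 (up to 0.1995, without Tyr19Phe CDK9 replicate 3). Between Tyr19Phe CDK9 and the inhibitor, CFLAR, the caspase-8 inhibitor (0.31 ± 0.07, adjusted p = 0.00165), and FADD (0.42 ± 0.14, adjusted p = 0.0307) were higher and RIPK1 (-0.20 ± 0.06, adjusted p = 0.0230) lower. The FADD call was lost without inhibitor replicate 2 or 3 or Tyr19Phe CDK9 replicate 2 (up to 0.1985, without the last), and that of RIPK1 without inhibitor replicate 2 or 3 or Tyr19Phe CDK9 replicate 2 or 3 (up to 0.214, without inhibitor replicate 2).

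Of 8 listed genes whose products meet BCL2 proteins, 8 were tested. With the inhibitor 1 was called, in Tyr19Phe CDK9 cells 3 and between these groups 4. Of all tested genes 4.55, 18.0 and 20.7% were called, in that order. VDAC3, a porin, was at 164 to 172 CPM in WT CDK9 cells, 143 to 149 CPM with the inhibitor and 121 to 132 CPM in Tyr19Phe CDK9 cells, so the 3 groups were apart (-0.19 ± 0.05, adjusted p = 0.0187, and -0.40 ± 0.05, adjusted p = 2.38e-07). The inhibitor call was lost without WT CDK9 replicate 1 or 2 or inhibitor replicate 1 or 2 (up to 0.105, without inhibitor replicate 1). VDAC1 fell in Tyr19Phe CDK9 cells (-0.23 ± 0.04, adjusted p = 1.69e-05), and BCAP31 rose (0.14 ± 0.05, adjusted p = 0.0449), a call lost without WT CDK9 replicate 1 or 3, inhibitor replicate 3, or Tyr19Phe CDK9 replicate 1 or 2 (up to 0.162, without the last). VDAC2, the porin that carries BAK1, was at 189 to 195 CPM in WT CDK9 cells, 174 to 180 CPM with the inhibitor and 195 to 200 CPM in Tyr19Phe CDK9 cells. Only the last 2 groups differed past the threshold (0.17 ± 0.04, adjusted p = 0.00647). The 81 tested genes within 5 Mb of VDAC2 on chromosome 10 had a median of 0.18 in that comparison, and their part in the result was not tested. TMBIM6 was lower in Tyr19Phe CDK9 cells than with the inhibitor (-0.19 ± 0.04, adjusted p = 3.72e-04).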
